A study of Homo sapiens with 12 samples.

Results

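The genes described here are 10 receptor genes known from the escape of melanoma cells from BRAF inhibitors: *EGFR*, *ERBB2*, *ERBB3*, *PDGFRA*, *PDGFRB*, *AXL*, *MET*, *IGF1R*, *NGFR* and *FGFR1*. They were taken by name as a list of receptors, with earlier results of these data known, and all 10 were found among the 58347 genes counted in each sample. Their counts were measured by RNA-seq in A375 cells, an established human melanoma cell line with mutant *BRAF*, exposed for 8 h to DMSO (the vehicle), tretinoin, vemurafenib or both drugs (the combination). Each of these 4 groups held 3 replicates, and the labels give 5 µM as the concentration in all of them, also for DMSO alone. All samples came from this single cell line, and the labels do not say whether replicates were separate cultures, so the p-values measure the spread between these samples, which may be technical.

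Receptor tyrosine kinases are surface proteins that dimerize when a growth factor binds, phosphorylate each other and recruit adaptors that feed the RAS-MAPK and PI3K-AKT pathways. *ERBB3* encodes a family member with an impaired kinase that signals through partners such as ERBB2, and *NGFR* is not a kinase at all but a neurotrophin receptor of the tumour necrosis factor receptor superfamily, a known mark of the neural crest-like melanoma state. Vemurafenib inhibits mutant BRAF and with it ERK, whose output normally dampens receptor signalling through feedback inhibitors, and higher receptor levels are a known route around the drug. Tretinoin is all-trans retinoic acid, a ligand of nuclear receptors that act as transcription factors.

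To show the regulatory sequence of the members on which the results turn, the 250 bases before the RefSeq start (GRCh38.p14) are given for *PDGFRB*, the member with the largest rise in vemurafenib, for *EGFR*, the member with the largest fall, and for *AXL*, the member with the highest level per kilobase in DMSO. The RefSeq table had entries for 7 of the 10 members, and *ERBB3*, *NGFR* and *FGFR1* were not among them. Each window is written 5′ to 3′ on the strand of its gene, and capitals mark matches to the motifs searched. The *PDGFRB* window is chr5:150155846-150156095 on the minus strand, the *EGFR* window chr7:55018767-55019016 on the plus strand and the *AXL* window chr19:41218973-41219222 on the plus strand.
PDGFRB: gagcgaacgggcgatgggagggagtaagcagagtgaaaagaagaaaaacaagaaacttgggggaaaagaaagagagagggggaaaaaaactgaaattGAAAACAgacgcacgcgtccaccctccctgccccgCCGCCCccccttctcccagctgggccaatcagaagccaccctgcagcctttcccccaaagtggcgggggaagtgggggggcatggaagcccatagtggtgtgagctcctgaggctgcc
EGFR: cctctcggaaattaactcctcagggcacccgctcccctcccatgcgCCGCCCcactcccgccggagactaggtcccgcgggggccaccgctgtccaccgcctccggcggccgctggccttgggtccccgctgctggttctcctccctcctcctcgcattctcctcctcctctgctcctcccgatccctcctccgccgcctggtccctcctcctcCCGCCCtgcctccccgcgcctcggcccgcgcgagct
AXL: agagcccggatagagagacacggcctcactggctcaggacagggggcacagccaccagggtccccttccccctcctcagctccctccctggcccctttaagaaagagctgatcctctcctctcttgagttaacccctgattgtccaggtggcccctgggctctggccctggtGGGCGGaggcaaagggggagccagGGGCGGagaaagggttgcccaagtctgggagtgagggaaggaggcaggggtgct
The capitals in *PDGFRB* are a forkhead core (TGTTTNC), which starts 153 bases before the start site, and a GC box (GGGCGG). The forkhead core was found in 1 of the 7 windows and in 15.5% of 35116 promoter windows of the same length. The GC box was found in 5 of the 7 windows, with 2 matches each in *EGFR* and *AXL*, and in 42.6% of all windows. AP-1 (TGANTCA) matched the windows of *ERBB2* and *PDGFRA*, against 6.57% of all windows, and ETS (CCGGAAG) matched 2 places in *ERBB2*, against 8.52%. Of these windows, 180 bases in *ERBB2*, 196 in *PDGFRA*, 27 in *PDGFRB* and 20 in *AXL* lie inside the gene as annotated by GENCODE. The *PDGFRA* match and the ETS matches fall in those parts. The retinoid receptor motif AGGTCA matched none of the 7 windows, against 12.1% of all windows. No match was found in the 7 windows for the E-box letters CACGTG, which 6.34% of all windows held. The same was so for the TEAD letters GGAATG, which 11.9% held, for a TATA box written TATAAA, which 10.7% held, and for the SOX letters ACAATGG, which 2.62% held. A cyclic AMP response element written TGACGTCA was in 1.65% of all windows and in none of the 7. Both strands were searched, and a match is a run of letters, not a bound site.

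Samples held 13510235 to 21534377 counted fragments. Tretinoin replicate 1 stood apart from its group. Its counts differed from those of the other tretinoin replicates with a chi-square per degree of freedom of 21.45 and 24.48, against 2.69 between those replicates, and values that rest on it are also given without it. In vemurafenib and in the combination, all 10 genes of a list of ERK targets fell (median log2 fold change against DMSO -3.76 and -3.65). Of all genes, 26.3% and 26.5% fell. In tretinoin, 4 of 7 tested retinoid response genes rose, against 3.48% of all genes, among them *DHRS3* (2.91 ± 0.09, log2 ± SE). In vemurafenib, 2 of these 7 rose and 3 fell. Of the melanocyte lineage markers, *SOX10* was listed at 0 in all 12 samples and *TYR* had at most 1 count, while *MITF* had 245 to 658, *PAX3* 142 to 248 and *S100B* 84 to 206. Why *SOX10* was listed at 0 was not tested, and that value alone does not show that its RNA was absent.

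All 10 receptor genes passed the filter on low counts, which left 16740 genes. Their levels are compared here as fragments per kilobase of exon in TMM-scaled libraries (FPKM). In DMSO, *AXL* (79.6 ± 8.62, SD, n = 3) was the highest, followed by *ERBB3* (22.7 ± 2.23). *NGFR* (9.84), *MET* (9.64) and *IGF1R* (9.58) lay close to each other, then came *ERBB2* (7.18), *FGFR1* (3.39), *EGFR* (1.69) and *PDGFRB* (1.54), and *PDGFRA* was nearly silent at 0.134. The ratio of *AXL* to *ERBB3* per kilobase was 3.55 ± 0.646 in DMSO and 3.01 ± 0.142 in tretinoin, and it was 1.11 ± 0.0229 in vemurafenib and 1.2 ± 0.0515 in the combination. *ERBB3* stood at 13.5 ± 1.04 times the level of *EGFR* in DMSO and at 58.0 ± 6.48 times in vemurafenib. *PDGFRB* and *EGFR* were nearly level in DMSO (ratio 0.909 ± 0.0133), and in vemurafenib *PDGFRB* was 5.18 ± 0.44 times *EGFR*. Levels per kilobase depend on the length used. With the longest transcript in place of all exons, *ERBB2* was at 15 and *FGFR1* at 7.55 in DMSO, and *ERBB3* then ranked above *AXL* in vemurafenib and in the combination.

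**Figure D1:**
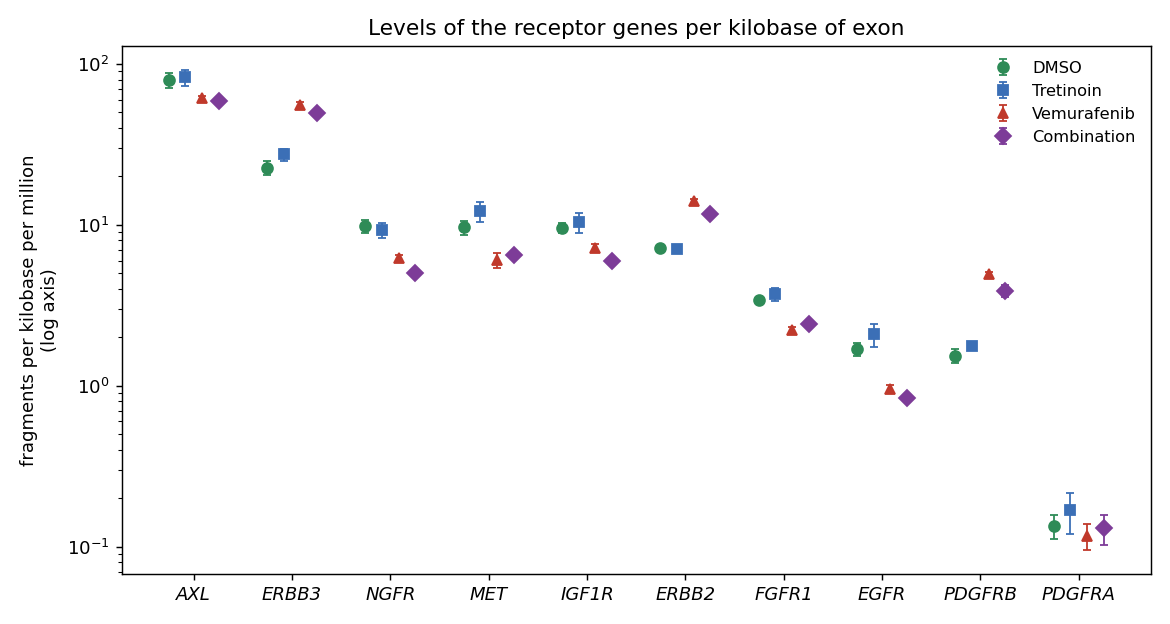
Level of each receptor gene (FPKM, log axis) in the 4 treatment groups, with points for the mean and bars for the SD of 3 replicates. *AXL* led in DMSO at 79.6, *PDGFRA* was lowest at 0.134, and *ERBB3* and *AXL* lay close together in vemurafenib at 55.3 and 61.1.

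The first question is what BRAF inhibition did to the receptors. In vemurafenib against DMSO, 3 of the 10 receptor genes rose (*PDGFRB*, *ERBB3* and *ERBB2*), 6 fell (*EGFR*, *MET*, *NGFR*, *FGFR1*, *IGF1R* and *AXL*) and *PDGFRA* did not pass the test. A gene is said to rise or fall where its adjusted p in edgeR's quasi-likelihood test, corrected over all genes tested, was below 0.05. That rule called 52.6% of all genes in this comparison (26.4% up and 26.3% down), so 9 called of 10 stood beside a background in which most genes moved. The median log2 fold change of the 10 was -0.40, against 0.019 over all genes, and the median size of change over all genes was 0.37. In these bulk samples, fewer cells expressing a receptor and less of its RNA per cell cannot be told apart.

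*PDGFRB* (chr5:150113837-150155872, minus strand, GRCh38), a receptor for PDGF-B and PDGF-D, had the largest rise. Its normalized counts, which are counts scaled by TMM to a common depth, were 202.6, 177.0 and 214.5 in DMSO, 225.2, 224.7 and 236.6 in tretinoin, 646.7, 645.1 and 618.9 in vemurafenib and 452.4, 517.1 and 530.9 in the combination. The 4 groups did not overlap. Vemurafenib raised it 3.2-fold (95% interval 2.8 to 3.67, log2 fold change 1.68 ± 0.09 SE, edgeR adjusted p = 1.16e-10), and the combination raised it 2.52-fold (2.2 to 2.89). Its relative *PDGFRA* (chr4:54229097-54298247, plus strand), a receptor with a wider choice of PDGF ligands, had 16 to 33 raw counts in every library. Its normalized counts were 23.3, 19.5 and 27.7 in DMSO, 34.4, 34.7 and 19.8 in tretinoin, 16.9, 24.3 and 20.6 in vemurafenib and 27.8, 22.7 and 18.0 in the combination, with all groups overlapping. The interval of its fold change in vemurafenib ran from 0.564 to 1.35, so a change of that size was not detectable at this depth. Of its exon bases, 15.75% lie in a neighbouring annotated gene, *AC058822.1*, where fragments may have been counted for neither.

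The ERBB family moved in different directions. *ERBB3* (chr12:56076799-56103505, plus strand), the neuregulin receptor with an impaired kinase, had normalized counts of 4037.5, 3316.5 and 3763.6 in DMSO, 4827.4, 4524.3 and 4079.9 in tretinoin, 9229.7, 9361.6 and 8486.7 in vemurafenib and 7687.9, 8459.6 and 8103.2 in the combination. It rose 2.44-fold in vemurafenib (95% interval 2.16 to 2.75, log2 fold change 1.28 ± 0.08, edgeR adjusted p = 9.88e-10) and 2.18-fold in the combination (1.93 to 2.46). *ERBB2* (chr17:39687914-39730426, plus strand), the partner without a ligand of its own, had 1343.9, 1270.7 and 1403.6 in DMSO, 1369.8, 1274.9 and 1337.2 in tretinoin, 2575.4, 2732.5 and 2608.1 in vemurafenib and 2189.5, 2267.5 and 2067.3 in the combination. Vemurafenib samples were the highest, combination samples came next and the other groups overlapped at the bottom. *ERBB2* rose 1.97-fold in vemurafenib (1.79 to 2.17, adjusted p = 1.5e-09 in edgeR) and 1.62-fold in the combination (1.47 to 1.79). *EGFR* (chr7:55019021-55211628, plus strand), the receptor of EGF, TGF-alpha and amphiregulin, went the other way, with 384.3, 344.2 and 417.7 in DMSO, 560.4, 442.1 and 414.7 in tretinoin, 209.3, 207.8 and 232.4 in vemurafenib and 196.9, 190.6 and 182.4 in the combination. Every sample with vemurafenib was below every sample without it. The fall was to 0.564 of DMSO in vemurafenib (95% interval 0.477 to 0.668, log2 fold change -0.82 ± 0.12, edgeR adjusted p = 1.14e-05) and to 0.496 in the combination (0.419 to 0.587). The upstream window of *EGFR* printed above carried GC boxes and none of the other motifs searched.

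**Figure D2:**
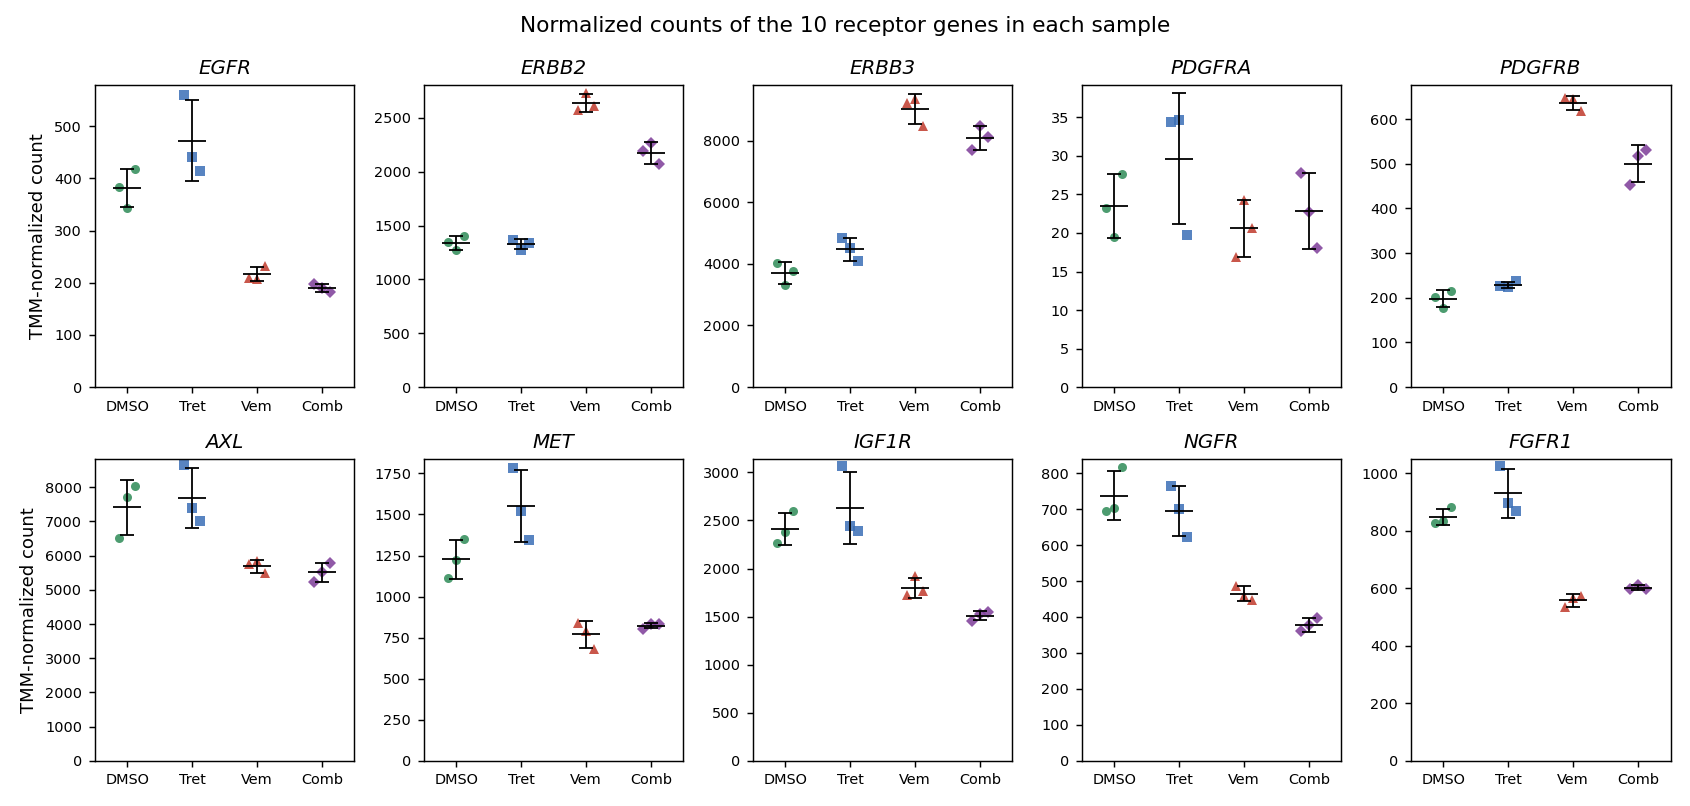
TMM-normalized count of each receptor gene in the 12 samples, 1 panel per gene with an axis from 0, with a point per replicate and bars for the mean and SD of 3. *PDGFRB*, *ERBB2* and *ERBB3* were higher in the 6 samples with vemurafenib than in the others, 6 genes were lower, and *PDGFRA* stayed below 35 in all groups.

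*AXL* (chr19:41219203-41261766, plus strand), the receptor of GAS6 and the most abundant member in DMSO, fell the least. Its normalized counts were 6510.9, 7703.5 and 8037.4 in DMSO, 8659.9, 7382.9 and 7008.6 in tretinoin, 5741.1, 5847.5 and 5480.1 in vemurafenib and 5218.1, 5532.3 and 5774.1 in the combination. The vemurafenib and combination samples overlapped each other and lay below all others. The fall was to 0.767 of DMSO in vemurafenib (0.674 to 0.873, adjusted p = 0.00148 in edgeR) and to 0.743 in the combination. Scaled by total counts alone, the log2 fold change in vemurafenib was -0.19 (adjusted p = 0.0874) and no longer passed. *IGF1R* (chr15:98648539-98964530, plus strand), the receptor of the insulin-like growth factors, had 2268.5, 2376.6 and 2593.6 in DMSO, 3061.5, 2438.6 and 2389.3 in tretinoin, 1720.4, 1917.0 and 1765.5 in vemurafenib and 1455.7, 1525.4 and 1551.9 in the combination. It fell to 0.746 of DMSO in vemurafenib (0.657 to 0.848) and to 0.626 in the combination (0.551 to 0.712), and under total counts alone the first of these did not pass (log2 fold change -0.23, adjusted p = 0.0552).

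*MET* (chr7:116672390-116798386, plus strand), the receptor of hepatocyte growth factor, had normalized counts of 1111.0, 1220.6 and 1348.3 in DMSO, 1784.4, 1522.8 and 1345.1 in tretinoin, 841.9, 792.0 and 678.6 in vemurafenib and 805.4, 831.9 and 832.0 in the combination. It fell to 0.629 of DMSO in vemurafenib (0.542 to 0.729) and to 0.671 in the combination (0.579 to 0.777). *FGFR1*, a receptor of fibroblast growth factors, had 828.0, 834.9 and 882.0 in DMSO, 1026.7, 897.9 and 868.0 in tretinoin, 534.0, 567.7 and 574.4 in vemurafenib and 597.6, 612.8 and 597.2 in the combination. It fell to 0.658 of DMSO in vemurafenib (0.589 to 0.735) and to 0.71 in the combination (0.636 to 0.792). For both genes the samples with vemurafenib lay below all samples without it. *NGFR* (chr17:49495293-49515017, plus strand) had 694.1, 701.9 and 817.2 in DMSO, 763.1, 699.4 and 623.6 in tretinoin, 487.1, 459.0 and 446.3 in vemurafenib and 359.9, 376.9 and 398.4 in the combination. It fell to 0.629 of DMSO in vemurafenib (0.551 to 0.717) and to 0.513 in the combination (0.449 to 0.586). Antisense transcripts cover 27.13% of the *NGFR* exon bases, and since the counting ignored strand, fragments there may have gone to no gene.

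In the combination against DMSO, the same 9 receptor genes passed the test in the same directions, 3 up and 6 down, against 53.6% of all genes called (27.1% up and 26.5% down). The median of the 10 log2 fold changes was -0.46, against 0.025 over all genes. This comparison shares its DMSO samples with the preceding one, so the values are set side by side and not counted as separate support. The 9 also passed in vemurafenib against tretinoin (48.4% of all genes called) and in the combination against tretinoin (49.1%), with 3 up and 6 down in each. For *EGFR*, *MET*, *AXL*, *IGF1R* and *FGFR1*, which were measured above DMSO in tretinoin, the distance to tretinoin was larger than to DMSO. For *AXL* and *IGF1R* this rested on tretinoin replicate 1, without which their log2 fold changes in tretinoin against DMSO were -0.045 and -0.002. *EGFR* in the combination was 0.404 of its tretinoin level (0.341 to 0.477).

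**Figure D3:**
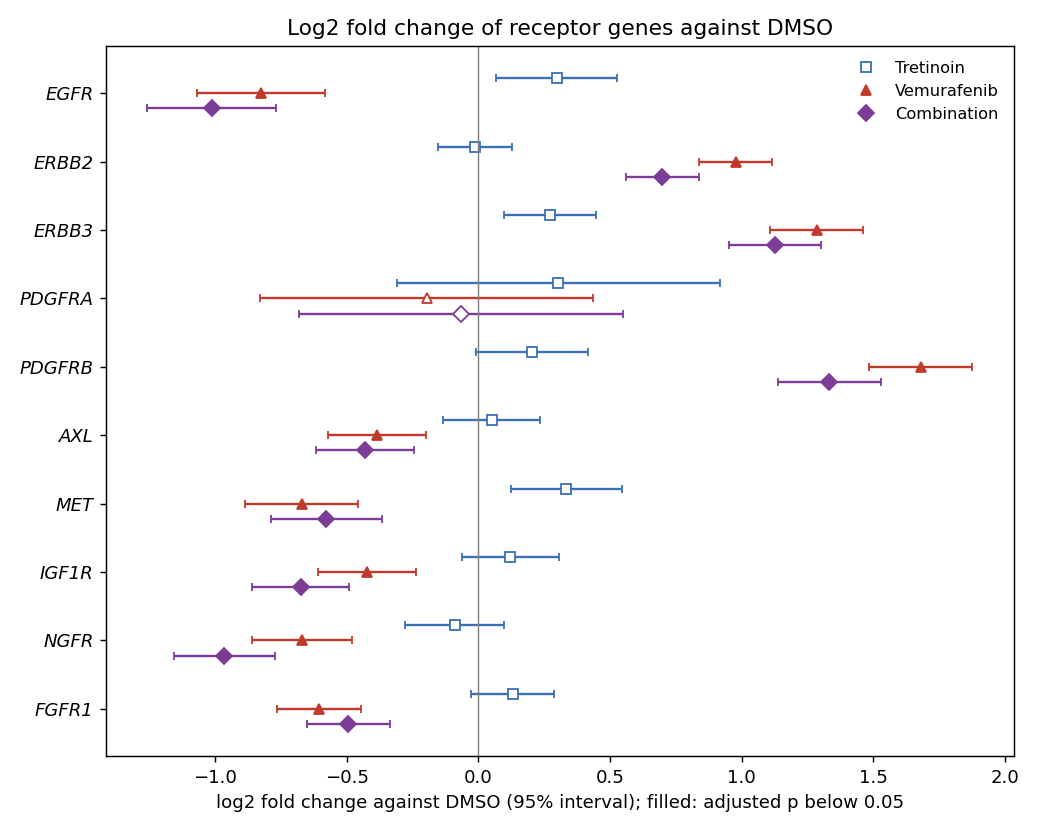
Log2 fold change of each receptor gene against DMSO in tretinoin, vemurafenib and the combination, with 95% intervals from edgeR, where filled points had an adjusted p below 0.05. The values ran from -0.82 (*EGFR*) to 1.68 (*PDGFRB*) in vemurafenib and from -1.01 to 1.33 for the same genes in the combination, and no tretinoin value passed the test.

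Tretinoin alone against DMSO called none of the 10 receptor genes, against 5.68% of all genes (3.48% up and 2.2% down). At an unadjusted p below 0.05 there were 3, *EGFR*, *ERBB3* and *MET*, all measured higher in tretinoin. The share of all genes at that unadjusted threshold was not counted. DESeq2 called 1, *ERBB3* (adjusted p = 0.0378), beside 1242 over all genes without shrinkage. *MET* had the largest value, 1.26-fold (1.09 to 1.46, edgeR adjusted p = 0.0571), *EGFR* was at 1.23-fold (1.05 to 1.44, adjusted p = 0.118) and *ERBB3* at 1.21-fold (1.07 to 1.36, adjusted p = 0.0635). Without tretinoin replicate 1, which held the highest value of its group for all members but *PDGFRA* and *PDGFRB*, the log2 fold change of *MET* went from 0.33 to 0.22, that of *EGFR* from 0.30 to 0.16 and that of *ERBB3* from 0.27 to 0.21 (edgeR adjusted p = 0.111). *IGF1R* and *AXL* then measured -0.002 and -0.045 in place of 0.12 and 0.050. *ERBB3* and *PDGFRB* were the 2 members whose tretinoin and DMSO samples did not overlap, as was so for 24.2% of all genes tested.

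Next, the combination was compared with vemurafenib to ask what tretinoin added. Of the receptor genes, 2 of 10 fell, *PDGFRB* to 0.786 of its vemurafenib level (0.695 to 0.889, log2 fold change -0.35 ± 0.08, edgeR adjusted p = 0.0207) and *ERBB2* to 0.824 (0.751 to 0.905, -0.28 ± 0.06, adjusted p = 0.0143), and none rose. The test called 4.47% of all genes here, 2.2% downward. Both genes stayed above DMSO in the combination. This comparison shares its vemurafenib samples with that of vemurafenib against DMSO. *ERBB3* was at 0.896 of its vemurafenib level (0.795 to 1.01, adjusted p = 0.408). *NGFR* at 0.816 (0.713 to 0.934, adjusted p = 0.0936) and *IGF1R* at 0.839 (0.738 to 0.954, adjusted p = 0.141) did not pass with all 12 samples in the model, and passed when only the vemurafenib and combination samples were fitted (adjusted p = 0.0249 and 0.00874). The groups did not overlap for 7 of the 10 members, against 24.2% of all genes. The calls were close to the threshold. *PDGFRB* was lost without vemurafenib replicate 1 or 2 or combination replicate 1 or 2 (adjusted p up to 0.119), and *ERBB2* without vemurafenib replicate 2 or combination replicate 3 (adjusted p up to 0.0955).

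**Figure D4:**
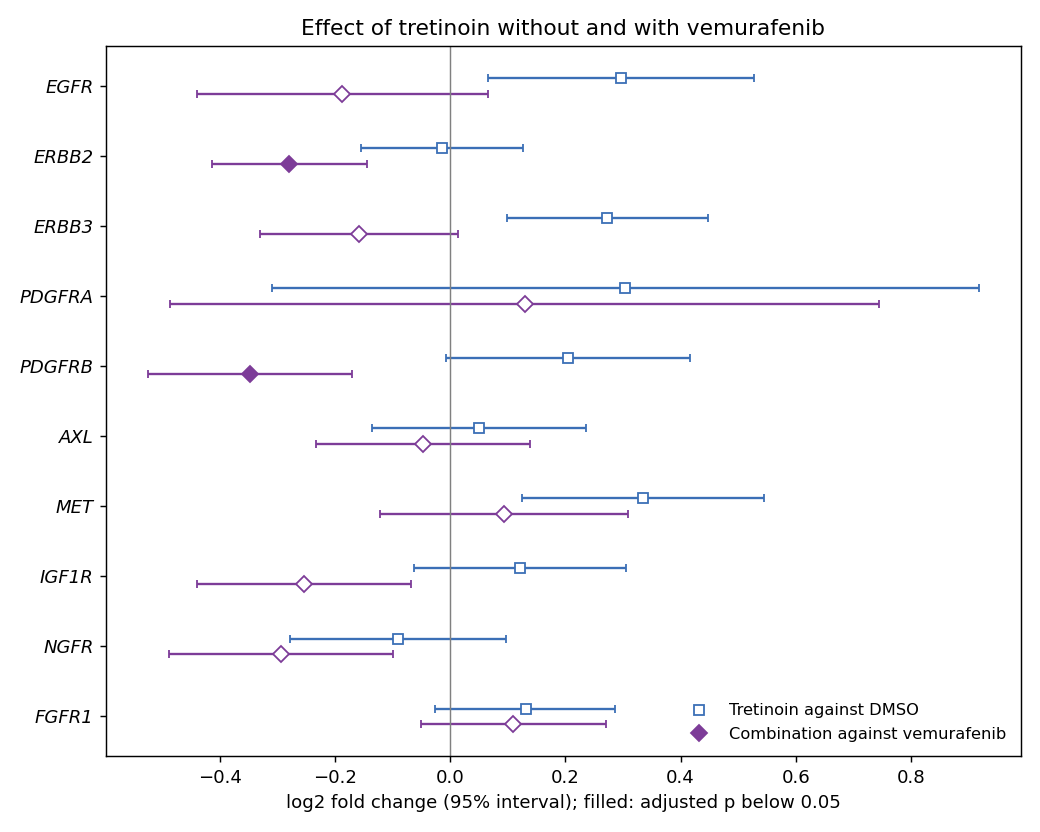
Log2 fold change of each receptor gene for tretinoin against DMSO and for the combination against vemurafenib, with 95% intervals from edgeR, where filled points had an adjusted p below 0.05. *PDGFRB* measured 0.20 without vemurafenib and -0.35 with it, and *ERBB3* 0.27 and -0.16.

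The interaction of the drugs, which is the tretinoin effect with vemurafenib minus that without it on the log2 scale, passed for none of the 10 receptor genes in edgeR, against 0.806% of all genes (0.382% above 0 and 0.424% below). At an unadjusted p below 0.05 there were 5 (*PDGFRB*, *ERBB3*, *IGF1R*, *EGFR* and *ERBB2*), and the share of all genes at that looser rule was not counted. DESeq2 called 2, *PDGFRB* (adjusted p = 0.0383) and *ERBB3* (adjusted p = 0.0299), beside 254 over all genes without shrinkage. The value of *PDGFRB* was -0.55 ± 0.13 (edgeR adjusted p = 0.0587) and that of *ERBB3* -0.43 ± 0.12 (adjusted p = 0.104). The measured values of all 10 were below 0, with a median of -0.25 against -0.010 over all genes. The 10 values share the same libraries, so they are not separate observations. The share of all genes below 0 was not counted, so the shared sign is not read as particular to these receptors. Scaled by total counts alone, the median over all genes was -0.114. With 1 replicate left out, *EGFR* ranged from -0.57 to -0.347 and *IGF1R* from -0.44 to -0.252. *FGFR1* was above 0 without tretinoin replicate 1 (0.054) or without the filter on low counts (0.010). Without that replicate *PDGFRB* passed in edgeR (-0.56, adjusted p = 0.0379).

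Ordered by group means, *ERBB3* and *PDGFRB* ran from vemurafenib through the combination and tretinoin to DMSO, and *ERBB2* had the last groups exchanged. Neighbours in that order that did not differ in edgeR were vemurafenib and the combination for *ERBB3* and the groups without vemurafenib for all 3 genes. *EGFR*, *AXL* and *IGF1R* ran from tretinoin through DMSO and vemurafenib to the combination, *MET* and *FGFR1* had the last groups exchanged, and *NGFR* had the first groups exchanged. For these 6 genes the step between the groups with and without vemurafenib was the only one that passed.

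By the similarity of log2 CPM (depth-scaled counts) over the 12 samples, the genes most like *PDGFRB* were *ALPK1* (Pearson r = 0.995), *ZNF629* (0.99) and *DMRTA1* (0.99), and those most like *ERBB3* were *PIK3C2B* (0.996), *GOLGA1* (0.993) and *SLC24A1* (0.991). Such values were common, with 393 and 409 of 16704 genes above 0.95, and the 12 points are the same libraries, of which the 6 with vemurafenib lay apart from the others for both receptors.

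The ligands of these receptors were tested for 17 of 30 listed genes. In vemurafenib against DMSO 6 rose and 9 fell, which is 88.2% called against 52.6% of all genes, with a median log2 fold change of -0.60. The EGFR ligands *AREG*, *TGFA* and *HBEGF* fell with their receptor. *AREG*, which encodes amphiregulin, had 128 to 206 raw counts in DMSO and 2 to 5 in vemurafenib (log2 fold change -5.83 ± 0.32). *TGFA* fell by 2.73 ± 0.09 and *HBEGF* by 1.79 ± 0.13 on that scale, while *EGF* rose by 1.24 ± 0.23 from 15 to 19 raw counts in DMSO. The neuregulins *NRG1* (-0.65 ± 0.21) and *NRG2* (-0.60 ± 0.14), ligands of ERBB3, fell while *ERBB3* rose. Of the PDGF genes, *PDGFA* (-0.91 ± 0.10) and *PDGFB* (-0.71 ± 0.19) fell and *PDGFC* (0.69 ± 0.14) and *PDGFD* (0.72 ± 0.17) rose. *HGF*, the MET ligand, rose by 2.01 ± 0.42 from 5 to 11 raw counts in DMSO to 28 to 39. *FGF1* rose by 2.27 ± 0.20 and *FGF2* fell by 0.84 ± 0.09. *BDNF*, a neurotrophin that binds NGFR, fell by 1.36 ± 0.30, and *GAS6*, the AXL ligand, rose by 0.35 ± 0.12, a call that was lost without DMSO replicate 3 or vemurafenib replicate 3. In the combination against DMSO 5 rose and 8 fell (76.5%, against 53.6% of all genes), with *AREG* at -4.78 ± 0.27, *HGF* at 2.52 ± 0.40 and *FGF1* at 2.26 ± 0.20. Against vemurafenib, 1 of the 17 was higher in the combination (5.88%, near the 4.47% of all genes called). This was *PDGFB* (0.86 ± 0.18), a call lost without vemurafenib replicate 1 or 2. In tretinoin alone 2 rose (11.8%, against 5.68% of all genes called), *TGFA* (0.54 ± 0.08) and *HGF* (1.58 ± 0.45). The genes *IGF1* and *IGF2*, ligands of IGF1R, had at most 1 and 3 raw counts and were not tested. Of their exon bases, 82.41% and 27.57% lie in other annotated genes too, where fragments may have been counted for neither.

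**Figure D5:**
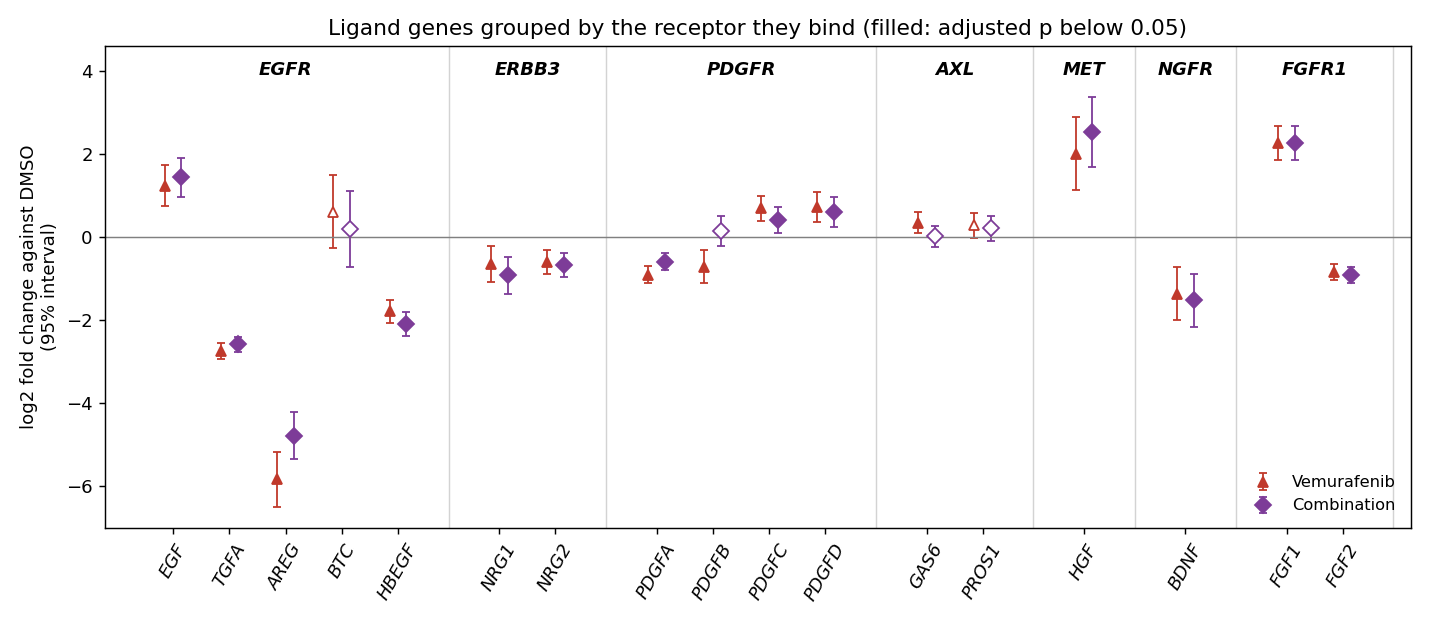
Log2 fold change against DMSO of the 17 tested ligand genes in vemurafenib and in the combination, grouped by the receptor they bind (PDGFR stands for both PDGF receptors), with 95% intervals from edgeR and filled points for an adjusted p below 0.05. *AREG* lay lowest, at -5.83 and -4.78, and *HGF* and *FGF1* highest.

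Among negative regulators and proteins that turn receptors over, 4 of 24 tested genes rose and 11 fell in vemurafenib, and as many did so in the combination (62.5% called in each, near the 52.6% and 53.6% of all genes). The median log2 fold changes of the list were -0.14 and -0.20, against 0.019 and 0.025 over all genes. The largest falls in the combination were those of *ERRFI1* (-2.94 ± 0.10), an inhibitor of EGFR family kinases, *SH2B3* (-2.64 ± 0.11), an adaptor that restrains cytokine and kinase receptors, and *NEDD4L* (-2.63 ± 0.11), a ubiquitin ligase. The suppressors of cytokine signalling *SOCS3* (-1.43 ± 0.11) and *SOCS5* (-0.92 ± 0.09) and the phosphatase gene *PTPN12* (-1.42 ± 0.07) fell as well. The IGF binding proteins and sheddases held 3 up and 3 down of 10 tested in vemurafenib (60%, against 52.6% of all genes), and 5 up and 2 down in the combination (70%, against 53.6%), with medians of 0.046 and 0.058. *IGFBP3*, which binds insulin-like growth factors, had 7622 to 10031 raw counts in DMSO, 666 to 811 in vemurafenib and 1021 to 1276 in the combination, and fell by 3.83 ± 0.09 and 3.23 ± 0.08. *IGFBP4* fell by 2.15 ± 0.09 in the combination, and *IGFBP5* (2.23 ± 0.16), *IGFBP6* (0.81 ± 0.13), *IGFBP7* (0.70 ± 0.12) and the sheddase gene *ADAM17* (0.42 ± 0.08) rose.

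Of the adaptors downstream of the receptors, 6 of 25 rose and 9 fell in vemurafenib (60% called, near the 52.6% of all genes), and 5 rose and 12 fell in the combination (68%, against 53.6%). Their median log2 fold changes were -0.066 and -0.245. In the combination, *SHC4* (-1.75 ± 0.21) and the insulin receptor substrate *IRS1* (-1.42 ± 0.11) fell, and the docking protein gene *GAB1* (1.07 ± 0.19), the PI3K regulatory subunits *PIK3R1* (0.99 ± 0.08) and *PIK3R3* (0.82 ± 0.11) and the RAS exchange factor *SOS1* (0.87 ± 0.11) rose. Of the coreceptors, 4 of 10 rose and 4 fell in the combination (80%, against 53.6% of all genes, median -0.055). *NRP1* (1.31 ± 0.07) and *NRP2* (1.16 ± 0.08), the neuropilins, rose in the combination and also in tretinoin alone (0.70 ± 0.07 and 1.07 ± 0.08). *LRP1* (0.77 ± 0.10) and *SORT1* (0.79 ± 0.08), which encodes the partner of NGFR sortilin, rose, and *SDC1* (-1.05 ± 0.07) and *CD44* (-0.59 ± 0.09) fell.

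Among 26 tested transcription factors linked to receptor genes, 7 rose and 11 fell in vemurafenib (69.2% called, against 52.6% of all genes), with a median log2 fold change of -0.127. *FOXD3*, a forkhead factor of the neural crest lineage, had 85 to 106 raw counts in DMSO, 1119 to 1453 in vemurafenib and 1495 to 1808 in the combination, and rose by 3.60 ± 0.10 and 3.79 ± 0.10. *FOXO3*, another forkhead factor, rose by 1.18 ± 0.09 in the combination. *FOSL1* (-3.06 ± 0.09) and *FOS* (-2.51 ± 0.30), which are AP-1 subunits, *EGR1* (-2.67 ± 0.18) and *TEAD4* (-1.16 ± 0.09) fell there.

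The other receptor tyrosine kinases were tested for 36 of 49 listed genes. In vemurafenib 13 rose and 10 fell (63.9% called, against 52.6% of all genes), and in the combination 11 rose and 11 fell (61.1%, near the 53.6% of all genes). Their median log2 fold changes were 0.357 and 0.078. *EPHA2*, an ephrin receptor with a level per kilobase of 126 in DMSO, above that of *AXL*, fell by 3.13 ± 0.09 in vemurafenib and by 2.29 ± 0.09 in the combination. Of the receptors of vascular endothelial growth factor, *KDR* (-2.27 ± 0.25) and *FLT1* (-2.15 ± 0.14) fell in the combination. *TEK* (3.39 ± 0.21), the angiopoietin receptor, and *AATK* (2.52 ± 0.18) rose there from at most 23 and 26 raw counts in DMSO. The neurotrophin receptor gene *NTRK2* had 1 to 3 raw counts in DMSO and 22 to 40 in the combination, a fold of 12.3 with an interval of 5.98 to 25.1. The combination against vemurafenib called 11 of these 36, 5 up and 6 down (30.6%, against 4.47% of all genes), with a median of -0.152.

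Genes used as markers of other cell types were also counted, although all samples came from the A375 line alone. Keratinocyte markers summed to 76.6 to 94.8 CPM in DMSO and 92.1 to 108 in the combination, with *KRT1* listed at 0 in all samples. Endothelial markers, a list that includes *KDR* and *TEK*, summed to 9.22 to 12.9 in DMSO, 20.2 to 25.7 in tretinoin, 7.69 to 8.93 in vemurafenib and 16.7 to 18.1 in the combination. Lymphoid and myeloid markers summed to 3.9 to 6.55 in DMSO and 6.41 to 8.47 in the combination. In vemurafenib, 26.4% of all genes rose and 26.3% fell. Of the markers, 1 of 3 tested keratinocyte genes rose (*KRT14*, 1.24 ± 0.21). Of 6 endothelial markers 2 rose (*TEK* and *VWF*) and 2 fell (*KDR* and *CDH5*), and 1 of 2 lymphoid and myeloid markers rose (*PTPRC*, 1.36 ± 0.32). Lists this short cannot be set apart from the shares over all genes, and their part in the receptor values was not tested. In the melanocyte list 2 of 6 tested genes rose (33.3%, near the 26.4% of all genes), *MITF* (0.88 ± 0.10) and *TYRP1* (2.32 ± 0.32).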

How the data were processed

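RNA was measured in 12 samples of A375 cells, 3 for each of DMSO, tretinoin, vemurafenib and their combination. The deposited values were whole-number counts per gene. The authors sequenced directional poly(A) libraries as paired 150-base reads, aligned them with STAR 2.5.3a to GRCh38.p10 and counted fragments per GENCODE gene with strand ignored, so reads of overlapping antisense genes cannot be told apart. Here the counts were filtered with filterByExpr, scaled by TMM and fitted over all 12 samples with edgeR 4.0.16 in R 4.3.3 (quasi-likelihood test, Benjamini-Hochberg adjustment over 16740 genes in each comparison, threshold 0.05). SEs were derived from the F statistic. The model was checked on simulated counts. Gene positions and exon lengths came from GENCODE 29, in which 58084 of the 58347 genes were matched. Promoter windows came from RefSeq.

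The 10 receptor genes and all gene lists were chosen with earlier results of these data known. By rule, up to 6 genes of each list were named, those called in the combination against DMSO with the largest change, along with ligands beside their receptor and the 3 genes most alike in pattern to the 2 members that changed most in vemurafenib. Marker genes and genes whose tretinoin effect differed with and without vemurafenib were named besides. The alternatives were DESeq2 1.42.0 with and without shrinkage, other scalings and filters, fewer samples in the model, a replicate block and leaving out each replicate. Those for counts over all genes and for list genes were added after seeing the data. Replicate numbers did not pair the samples. Counts are of fragments without molecular identifiers, and depth limits *PDGFRA* most.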

Additional observations from a re-analysis of the deposited data

Results flagged for a closer look

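The effect of tretinoin differed with and without vemurafenib, by edgeR's interaction test, for 6 genes of the lists. That test called 0.806% of all genes. The lists share some genes and were chosen with earlier results known, and their share called as a whole was not counted. The difference of log2 fold changes was 2.88 for the endothelial cadherin gene *CDH5*, which had 64 to 98 raw counts in DMSO, 200 to 242 in tretinoin, 1 to 4 in vemurafenib and 45 to 78 in the combination. It was 0.86 for *EPHA2*, 0.69 for *IGFBP3*, 0.74 for *JUN*, 0.62 for *JUNB* and -0.49 for the syndecan gene *SDC1*. For *ERBB3* (-0.43) and *PDGFRB* (-0.55), every tretinoin sample lay above every DMSO sample and every combination sample below every vemurafenib sample, while the interaction did not pass in edgeR (adjusted p = 0.104 and 0.0587). Each of these separations alone, in either direction, was found for 24.2% of all genes, and the share with both was not counted. For *ERBB3* the highest combination value was 8459.6 and the lowest vemurafenib value 8486.7.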

How the results depend on the processing

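The 9 receptor genes called in vemurafenib and in the combination against DMSO, and against tretinoin, kept their direction under all alternatives run, and the calls lost were those of *AXL* and *IGF1R* in vemurafenib against DMSO under total counts. Of the values of single receptor genes under an alternative, 1055 kept direction and side of the threshold, 22 newly passed, 10 no longer passed and 13 changed sign. In tretinoin against DMSO, 0 receptor genes were called, against 1 with DESeq2 with or without shrinkage, 2 with total counts only, 1 with no filter, 2 at adjusted p below 0.1 and 0 to 3 when 1 replicate was left out (3 without tretinoin replicate 3). In the combination against vemurafenib, the 2 called became 0 with no filter (adjusted p = 0.112 for *ERBB2* and 0.0714 for *PDGFRB*), 4 with only the groups compared and 0 to 2 when 1 replicate was left out. For the interaction, 0 became 2 with DESeq2 with or without shrinkage, 1 with total counts only, 1 at adjusted p below 0.1 and 0 to 1 when 1 replicate was left out. The cause was not tested. Signs changed with total counts for *ERBB2* in tretinoin against DMSO (0.058) and *PDGFRA* in the combination against DMSO (0.096), and with no filter for the *FGFR1* interaction (0.010). With 1 replicate left out, tretinoin against DMSO ranged from -0.050 to 0.022 for *ERBB2*, -0.045 to 0.113 for *AXL* and -0.002 to 0.185 for *IGF1R*, *PDGFRA* from -0.224 to 0.076 against DMSO and -0.026 to 0.277 against vemurafenib in the combination, and the *FGFR1* interaction from -0.070 to 0.054.

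Scaling by total counts moved the median log2 fold change of all genes by 0.195 in vemurafenib and 0.162 in the combination against DMSO, 0.123 in vemurafenib against tretinoin and -0.104 in the interaction. Calls in vemurafenib against DMSO were then 6575 up and 2628 down (4411 and 4400 with TMM), in the combination against DMSO 6242 and 2916 (4537 and 4440) and in the combination against vemurafenib 322 and 434 (380 and 369). Over all genes, tretinoin against DMSO called 951, against 1540 with no filter, 305 with only the groups compared, 1715 at adjusted p below 0.1 and 379 without DMSO replicate 2. The combination against vemurafenib called 749, against 1269 with only the groups compared and as few as 460 with 1 replicate left out. The interaction called 135, against 254 and 252 with DESeq2, 610 with no filter, 269 at adjusted p below 0.1 and 60 to 265 with 1 replicate left out. Of the values of named list genes, 2561 kept their call, 129 no longer passed and 0 changed sign. Same-numbered samples did not deviate together (mean r -0.054 over 18 pairs, 4 over 0.1, and 0 of 12 samples correlated best with their own number). A replicate block left the counts of receptor genes called at 0, 9, 9, 2, 9, 9 and 0 in the 7 comparisons and the interaction over all genes at 75.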
